A study of Mus musculus with 3 samples.

Results

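The Rbm genes, named for the RNA-binding motif that their proteins carry, were examined in the primary germ layers of the mouse embryo. Members were all genes whose symbol is Rbm followed by a number and at most a letter or a further number, such as Rbm24, Rbm47 and Rbm12b1. Of 18193 genes with a probe set of their own on the array, 34 met this rule, and they had 92 of the 45037 probe sets in the table. A probe set is a group of short oligonucleotides against the same transcript. Of the 38 protein-coding Rbm genes in the RefSeq gene table, 4 were carried only by probe sets that list several gene symbols, namely Rbm3, Rbm4, Rbm10 and Rbm31y. Their 10 probe sets were left out, because the signal cannot be assigned to a single gene.

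The study dissected embryonic day 7.5 (E7.5) embryos of the outbred ICR strain into endoderm, mesoderm and epiblast, and the epiblast held the neuroectoderm and the primitive streak. The embryos were unmanipulated, the layers were parted with enzymes and glass needles from the embryonic region, and the sources used here do not state the number of embryos behind a sample. RNA of each layer (100 ng) was hybridised to 1 Affymetrix array, so there was 1 sample per layer, no replicate check for any difference, and no p-value. Median intensities were 79.9 in endoderm, 79.9 in mesoderm and 82.2 in epiblast.

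Proteins with an RNA-recognition motif bind single-stranded RNA and act at nearly every step between transcription and translation. Some Rbm proteins are parts of the spliceosome or of the exon junction complex that marks spliced mRNA, and these are needed in all cells. Others are restricted to certain tissues, such as Rbm20 and Rbm24 in heart and skeletal muscle, and steer the splicing or stability of particular transcripts. The comparison of the layers asks which of these factors are shared by the layers and which are unequal between them, a question the study raised for splicing factors in general.

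Values in this report are intensities in arbitrary units, always given in the order endoderm, mesoderm and epiblast, unless they are called log2 differences or folds. A gene with several probe sets was represented by the one that was brightest on average (mean log2 of the layers). A gene was taken as measured above background where its highest layer exceeded the floor, set at 80.6, the median over all probe sets and arrays. A gene was called different between a pair of layers where it was above the floor and the layers lay 2-fold or more apart. Where the lower value was under the floor, the fold was computed against the floor and is given as "at least". Levels of different genes come from different probes and are not compared with each other. Over 5536 genes with several probe sets, log2 differences had a pooled SD within genes of 0.40 (endoderm and epiblast), 0.27 (mesoderm and epiblast) and 0.39 (endoderm and mesoderm). This spread mixes measurement error with any real differences between the transcripts that the probe sets of a gene detect. It is not a replicate error.

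The layers were checked with marker lists. Summed over 6 visceral endoderm genes, the layers gave 41005, 469 and 426, and 6 definitive endoderm genes gave 16071, 3187 and 836. For 6 mesoderm genes the sums were 1115, 8870 and 2015, and for 6 epiblast genes 1925, 3051 and 13115. Each list had its highest sum in its labelled layer, but not every gene followed. Cxcr4 of the definitive endoderm list was brightest in mesoderm (495, 1138 and 83.5). Hand1 of the mesoderm list was level between mesoderm and epiblast (248, 323 and 325). Both endoderm lists summed highest in the endoderm sample, and how much of each kind of endoderm it held was not tested. In dissected layers, fewer cells of a type and less RNA per cell cannot be told apart.

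Of the 34 Rbm genes, 31 were above the floor in at least 1 layer, and Rbm11, Rbm44 and Rbm46 were below it in all of them. Only 4 members were called different between any pair of layers (12.9% of 31), against 21.5% of the 12785 genes above the floor. The 4 were Rbm24 and Rbm20, brightest in mesoderm, and Rbm47 and Rbm38, brightest in endoderm. None of the members was called for the epiblast as the brightest layer. In contrast, 24 of the 31 (77.4%) stayed within 1.5-fold from dimmest to brightest layer, which 61.6% of all measured genes did. When values under the floor were set to it, the same 4 members were called, against 18.8% of all genes. These shares describe the arrays and carry no test.

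**Figure D1:**
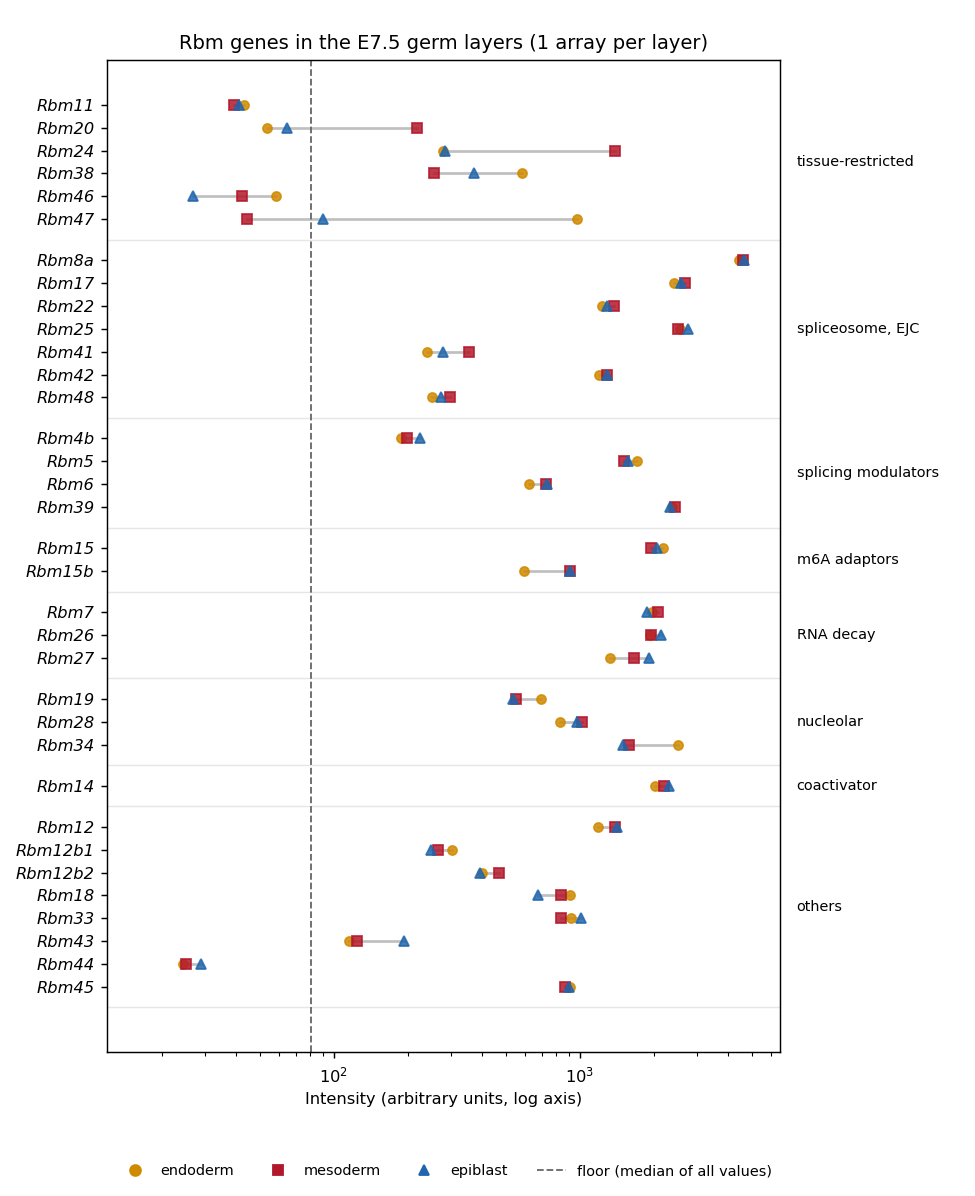
Intensity (arbitrary units, log axis) of each of the 34 Rbm genes in endoderm (circles), mesoderm (squares) and epiblast (triangles), 1 array per layer, grouped by role, with the floor of 80.6 as a dashed line (EJC, exon junction complex). Wide bars are seen for Rbm20, Rbm24, Rbm38 and Rbm47 in the tissue-restricted group, while most other members have their symbols on top of each other.

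By pair of layers, endoderm against epiblast called 1 member, Rbm47, of 31 (3.23%), where 16.5% of all genes were called. It was higher in endoderm, a direction with 12.5% of all genes, and 0 members were called lower in endoderm, where 4.01% of all genes were. Mesoderm against epiblast called 3 members (9.68%, against 6.69% of all genes), a count that was 2 under 5 of the 7 processing alternatives. Rbm20 and Rbm24 were higher in mesoderm (3.44% of all genes) and Rbm47 was lower (3.25%). Endoderm against mesoderm called all 4 (12.9%, against 15.3% of all genes), with Rbm38 and Rbm47 higher in endoderm (11.4% of all genes) and Rbm20 and Rbm24 lower (3.86%). The comparisons share arrays and are not independent of each other.

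The median log2 difference of the 31 members was -0.09 for endoderm minus epiblast, 0.00 for mesoderm minus epiblast and -0.08 for endoderm minus mesoderm. Over all genes above the floor the medians were 0.05, -0.02 and 0.07. Centring the arrays on housekeeping genes turned the sign of the first member median (0.03), while the median of all genes moved to 0.17. The brightest layer was the endoderm for 9 members (29.0%), the mesoderm for 11 and the epiblast for 11, whereas it was the endoderm for 47.0% of all genes, the mesoderm for 20.5% and the epiblast for 32.5%. For most members that order rests on differences smaller than the spread between probe sets of a gene.

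**Figure D2:**
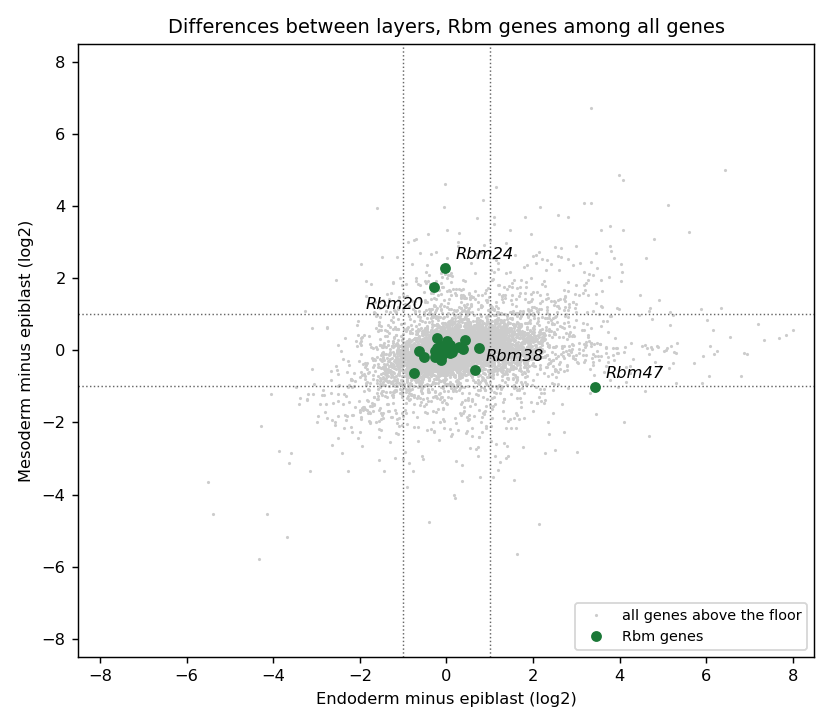
Log2 difference of endoderm minus epiblast (horizontal) and mesoderm minus epiblast (vertical) for all 12785 genes above the floor (grey) and the 31 Rbm genes among them (green), with dotted lines at 2-fold. Rbm24 (2.29) and Rbm20 (plotted at 1.76, with an epiblast value below the floor and so at least 1.44) lie above the upper line, Rbm47 lies at 3.43 on the horizontal axis, and Rbm38 is inside all lines because its call was between endoderm and mesoderm.

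The stretches of genome just before the starts of the called genes are shown here because these genes differ in level between the layers. RefSeq promoter windows (GRCm38.p6, 250 bases before to 50 after a start) were found for 27 of the 34 members, 31 windows in all, and Rbm20 is not among them. Printed are the bases of the first window of each gene that lie before its outermost annotated start, 5′ to 3′ along the strand of the gene. Capitals mark matches to a searched motif.
Rbm24, chr13:46418050-46418101, plus strand: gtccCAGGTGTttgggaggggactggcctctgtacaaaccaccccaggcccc
Rbm38, chr2:173021652-173021890, plus strand: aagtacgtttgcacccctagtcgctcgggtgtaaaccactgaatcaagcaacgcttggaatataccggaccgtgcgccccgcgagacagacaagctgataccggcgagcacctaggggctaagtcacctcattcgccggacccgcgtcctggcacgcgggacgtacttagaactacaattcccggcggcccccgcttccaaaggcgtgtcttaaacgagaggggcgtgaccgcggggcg
Rbm47, chr5:66151955-66152204, minus strand: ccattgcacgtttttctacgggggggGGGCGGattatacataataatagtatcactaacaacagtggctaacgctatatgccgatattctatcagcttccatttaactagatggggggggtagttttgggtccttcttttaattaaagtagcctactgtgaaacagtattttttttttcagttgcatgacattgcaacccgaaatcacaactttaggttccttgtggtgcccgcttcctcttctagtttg

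In the Rbm24 stretch the capitals hold CACCTG (read on the other strand), the E-box bound by Snai and Zeb repressors, and AGGTGT, a T-box motif, and these overlap. In the Rbm47 stretch they mark a GC box (GGGCGG). The Rbm38 stretch had none of the 8 motifs searched on both strands, which also included the TATA box (TATAAA), the CCAAT box, the site of GATA factors (GATAAG), that of forkhead factors (TGTTTAC) and the MEF2 site. Over whole windows CACCTG was in 6 of the 31 Rbm windows and in 20.2% of all 32851 windows of the table, AGGTGT in 2 and 13.7%, and GGGCGG in 13 and 35.7%. CCAAT was in 12 Rbm windows (37.4% of all windows), TATAAA in 3 (13.6%), TGTTTAC in 1 (3.65%), and GATAAG and the MEF2 site in 0 (7.44% and 3.69%). A match is a description of letters and not evidence of binding.

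The Rbm windows had a median GC content of 60.7%, against 52.7% over all windows, and a median ratio of observed to expected CpG of 0.79, against 0.38. Rbm47 has 3 annotated starts in this table, and their windows were 42.7%, 51.7% and 49.3% GC with CpG ratios of 0.73, 0.78 and 0.17. The windows of Rbm24 and Rbm38 were at 0.57 and 1.22. Which start was used in which layer cannot be read from these probe sets.

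The tissue-restricted factors held all 4 called members. The group was drawn up with earlier results of these data in view and so gives no independent support for that. Rbm24, a regulator of splicing and mRNA stability in heart and skeletal muscle, had mesoderm as its brightest layer. It gave 276, 1382 and 282. Mesoderm was thus 4.90-fold above epiblast, and endoderm minus mesoderm was -2.32 on the log2 scale, while endoderm and epiblast lay 0.03 apart on the log2 scale.

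Rbm24 had 5 probe sets. The second gave 92.8, 536 and 78.3, so that mesoderm was 5.78-fold above endoderm and at least 6.65-fold above epiblast. A further one was dimmer, at 37.3, 120 and 41.7, or at least 1.48-fold higher in mesoderm than in both other layers. The remaining pair stayed below the floor, at 17.3, 48.7 and 17.7 for the one and 36.4, 33.6 and 32.6 for the other. All 3 probe sets above the floor had mesoderm as the brightest layer, and for the dimmest of them a step of 2-fold was not shown once the floor was applied. That dimmest one passed the floor only through its mesoderm value, so its brightest layer adds no separate support.

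Rbm20, the splicing factor of titin and other sarcomere transcripts in the heart, had a single probe set, at 53.4, 219 and 64.6. It was at least 2.71-fold higher in mesoderm than in either other layer, both of which were below the floor. No second probe set of the gene is named on the array, so the value stands alone, and with a stricter floor at the 75th percentile of all values (286) Rbm20 was not called.

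Genes of heart muscle stood beside these values as follows. Myl7, an atrial myosin light chain, was 323, 2502 and 262, the only called member of 7 cardiac muscle genes, whose summed intensities were 1320, 3569 and 1160, with most of the mesoderm sum from Myl7 itself. Actc1 (486, 568 and 390) and Tbx5 (68.8, 105 and 98.7) also had mesoderm on top, without a call. The myosin genes Myl4 (248, 158 and 138) and Myh6 (86.5, 89.3 and 141) had other layers on top. Nkx2-5 and Tnnt2, which define the cardiac lineage and its sarcomere, were below the floor in all layers on the probe sets used. Of 9 muscle transcripts known as targets of Rbm20 or Rbm24, 5 were above the floor and 3 were called. Nexn, an actin-binding protein of the sarcomere, was 297 in mesoderm, 3.56-fold above epiblast and at least 3.69-fold above endoderm, and the calcium channel gene Cacna1c was 19.8, 197 and 30.3. The tropomyosin gene Tpm1 was 1706, 1610 and 1103, with endoderm on top and no call. Pdlim5 was brighter in both endoderm and mesoderm than in epiblast (701, 603 and 294), and the probe set used for the titin gene Ttn was below the floor (68.0, 71.8 and 65.2). These muscle genes thus did not share 1 brightest layer, and what part the makeup of the mesoderm sample had in the Rbm values was not tested.

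Rbm47, which binds RNA in epithelial cells and serves as a cofactor of C-to-U RNA editing, showed the widest range of the members. The layers gave 973, 44.5 and 90.5. Endoderm was 10.7-fold above epiblast and at least 12.1-fold above mesoderm. A second probe set, at 1024, 38.0 and 81.0, again had endoderm above both other layers, and the remaining one was flat and below the floor at 30.1, 31.3 and 29.4.

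Between mesoderm and epiblast, Rbm47 was called lower in mesoderm at a log2 difference of -1.03, but that call rests on a mesoderm value below the floor. With mesoderm raised to the floor, epiblast was at least 1.12-fold above it, short of the 2-fold limit, and the call was lost under 4 of the 7 alternatives. The partners of Rbm47 in editing did not show the step: the editing enzyme gene Apobec1 was 54.4, 62.0 and 65.8 and its cofactor A1cf 54.3, 55.0 and 61.1, all below the floor, and the RNA-binding gene Syncrip was 1461, 1710 and 1676.

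The epithelial list shared the step of Rbm47 between endoderm and mesoderm. Sums over 6 epithelial genes were 34700, 7432 and 12073, and all 6 were called higher in endoderm than in mesoderm. Their order was not the same gene by gene: Cdh1, encoding E-cadherin, was 4562, 250 and 4021, as bright in epiblast as in endoderm within 1.5-fold, whereas Rbm47 was dim in epiblast. Between mesoderm and epiblast, 4 genes of the list were called lower in mesoderm and 2 higher. The higher ones were Krt8 (9001, 4001 and 1136) and Krt18 (8193, 2740 and 1087). All 6 visceral endoderm genes were called higher in endoderm than in both other layers. Whether the Rbm47 signal came from visceral or definitive endoderm was not tested.

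Rbm38, which acts in the p53 pathway and stabilises the mRNA of the cell cycle inhibitor Cdkn1a, was 584, 255 and 370 on its single probe set. Endoderm was 2.28-fold above mesoderm, a log2 difference of 1.19. Against epiblast it was called neither in endoderm (0.66) nor in mesoderm (-0.54). Cdkn1a itself was 307, 176 and 590, with the epiblast as its brightest layer, and Mdm2, another gene of that pathway, was 935, 596 and 626. Trp73, the other gene of the list above the floor, was 93.5, 108 and 145, with endoderm dimmest. Mdm2 thus had endoderm on top, as Rbm38 did, but without a call. Its log2 difference of mesoderm minus epiblast was -0.07, smaller than the pooled SD of 0.27, so the full order was not resolved. Cdkn1a and Trp73 had epiblast on top.

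Rbm46, a germ cell factor that binds mRNA and is related to Rbm47, was below the floor on both of its probe sets. These were 58.3, 42.4 and 26.9 and 53.6, 33.7 and 25.7. Both had the same order of layers and lay 2-fold or more apart between endoderm and epiblast, but below the floor no difference was called. Of 5 germ cell genes 3 were above the floor and 2 were called, with sums of 1032, 464 and 409. The called ones were Prdm1 (442, 98.8 and 40.1) and Ddx4 (355, 132 and 81.2). Tfap2c was uncalled and brightest in epiblast (147, 157 and 196), and Dazl and Dppa3 were below the floor. The part of germ cells in the Rbm46 values was not tested. Rbm11 (43.2, 39.2 and 41.2), a tissue-restricted splicing factor, and Rbm44 (24.3, 25.1 and 29.0), a protein of germ cell bridges, gave flat values at the dim end of the table.

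**Figure D3:**
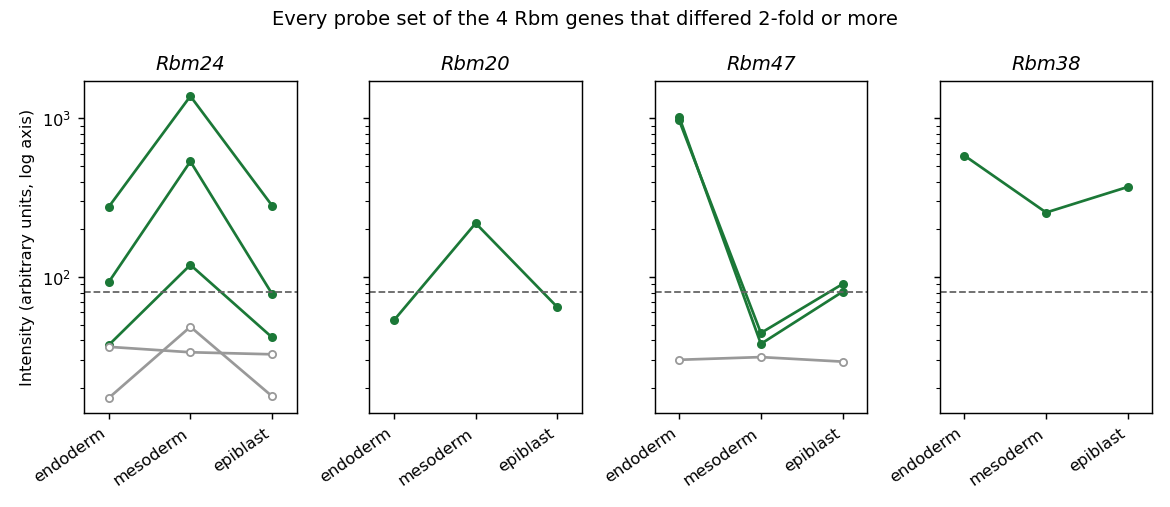
Intensity (log axis, arbitrary units) of every probe set of Rbm24, Rbm20, Rbm47 and Rbm38 in the 3 layers, 1 line per probe set and 1 array per layer, with open grey symbols for probe sets below the floor of 80.6 (dashed) in all layers. The 3 green lines of Rbm24 peak in mesoderm and the pair of Rbm47 lines falls from 973 and 1024 in endoderm to below the floor in mesoderm, while Rbm20 and Rbm38 have 1 line each.

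Members of the spliceosome and the exon junction complex were level. All 7 were within 1.5-fold over the layers, with a median range of 1.10-fold. Rbm8a, the Y14 subunit of the exon junction complex, was 4442, 4616 and 4629, a range of 1.04-fold. Rbm17, a factor of splice site choice, was 2416, 2669 and 2574, and Rbm22, a protein at the catalytic centre of the spliceosome, was 1228, 1373 and 1284. Rbm25, linked to the U1 particle, was 2542, 2493 and 2741, and Rbm42 was 1190, 1286 and 1284.

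Rbm41 and Rbm48, both tied to the minor spliceosome that removes rare introns, were 238, 354 and 277 and 250, 296 and 273. The 1.49-fold range of Rbm41 was the widest of the group and had mesoderm as the brightest layer. Of 8 other minor spliceosome genes above the floor 0 were called, and the median range was 1.17-fold. The exon junction complex list had 4 other genes above the floor, with 0 called and a median range of 1.11-fold. Magoh, the direct partner of Rbm8a, was not among the genes with a probe set of their own.

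General splicing modulators were also level on the probe sets used. Rbm39, a partner of the U2 auxiliary factor, was 2364, 2435 and 2321 on the brightest of its 12 probe sets, the most of any member. Among its dimmer probe sets above the floor the widest range was 1.61-fold, at 107, 146 and 90.7. Rbm5 and Rbm6, neighbours on the same chromosome with no other protein-coding gene between them, were 1704, 1508 and 1561 and 622, 731 and 734. On these probe sets endoderm was the brightest layer of Rbm5 and the dimmest of Rbm6, by 0.13 and -0.24 against epiblast (log2). Both are smaller than the pooled SD of 0.40 over all genes, and the second is above that of 0.21 over Rbm genes. The order was not the same on every probe set above the floor. For Rbm6 another gave 518, 676 and 673 (-0.38), and a further one 132, 131 and 127 (0.05). For Rbm5 the others gave 234, 233 and 233, then 116, 134 and 105, then 75.3, 91.6 and 72.0. Rbm4b, a close copy of Rbm4 beside it in the genome, was 187, 198 and 223. Rbm14, a transcriptional coactivator and paraspeckle protein that follows Rbm4 in the gene order, was 2011, 2191 and 2302.

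The adaptors that bring the m6A methyltransferase to its RNA targets were both uncalled. Rbm15 was 2170, 1940 and 2058, within 1.12-fold. Its paralogue Rbm15b was 591, 908 and 910, so that endoderm lay 0.62 below both other layers on the log2 scale. The other probe sets of Rbm15b gave the same sign at 324, 443 and 370 and at 82.2, 98.1 and 110, with smaller steps of -0.19 and -0.42 against epiblast. None of the 6 other genes of the complex was called, and Mettl3, the catalytic subunit, was 630, 754 and 839.

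Among adaptors of nuclear RNA decay, Rbm7, the RNA-binding subunit of the nuclear exosome targeting complex, was 1966, 2085 and 1870. Its partner Zcchc8 was 1001, 1080 and 1114. Rbm26 was 1931, 1947 and 2140, and the related Rbm27 was 1328, 1661 and 1902, the epiblast being 1.43-fold above endoderm. Dimmer probe sets of Rbm26 gave 501, 701 and 736 (epiblast 1.47-fold above endoderm) and 450, 549 and 549 (1.22-fold). A further one had endoderm on top (458, 397 and 428). All 3 members were within 1.5-fold, and 0 of 12 genes of the exosome and its targeting complexes were called.

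Nucleolar members leaned towards endoderm in part. Rbm34 was 2503, 1579 and 1496, a range of 1.67-fold. Its second probe set gave 815, 541 and 481, so the log2 difference between endoderm and epiblast was 0.74 on one and 0.76 on the other. Rbm19, a factor of ribosomal RNA processing, was 694, 552 and 534 (0.38), and Rbm28 was 833, 1018 and 968 (-0.22), the opposite sign. The second probe set of Rbm28 did not share that sign, at 199, 216 and 197 (0.01). Neither Rbm34 nor the others reached the 2-fold limit, and 0 of 12 ribosome biogenesis genes were called, with a median of -0.08 for endoderm minus epiblast.

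Rbm43, a protein with few known roles, had the widest range among the remaining members, 1.68-fold. It was 115, 124 and 193 on 1 probe set, with epiblast above both other layers. Rbm18 was 910, 836 and 678, and Rbm12 was 1185, 1393 and 1418. The neighbours Rbm12b1 and Rbm12b2 were 302, 266 and 248 and 398, 468 and 394, with different layers on top. Rbm33 (924, 837 and 1012) and Rbm45 (907, 870 and 904) completed the set. A dimmer probe set of Rbm33 was 68.5, 137 and 106, with mesoderm at least 1.69-fold above endoderm.

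Across all probe sets of the members, 72 of 92 were above the floor. Of these, 7 showed a difference of 2-fold or more (9.72%), against 20.2% of the 21902 probe sets of 1 symbol above the floor. All 7 belonged to the 4 called genes, and 6 were left when values under the floor were set to it. The log2 differences of the 18 members with several probe sets above the floor had a pooled SD of 0.21 (endoderm and epiblast), 0.23 (mesoderm and epiblast) and 0.24 (endoderm and mesoderm).

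The median range of the 31 members, from dimmest to brightest layer, was 1.19-fold, against 1.35-fold for all genes above the floor. The members thus fall into a level majority and a few with wide ranges: beyond the 4 called, whose ranges went from 2.28-fold for Rbm38 to at least 12.1-fold for Rbm47, the next widest was 1.68-fold.

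**Figure D4:**
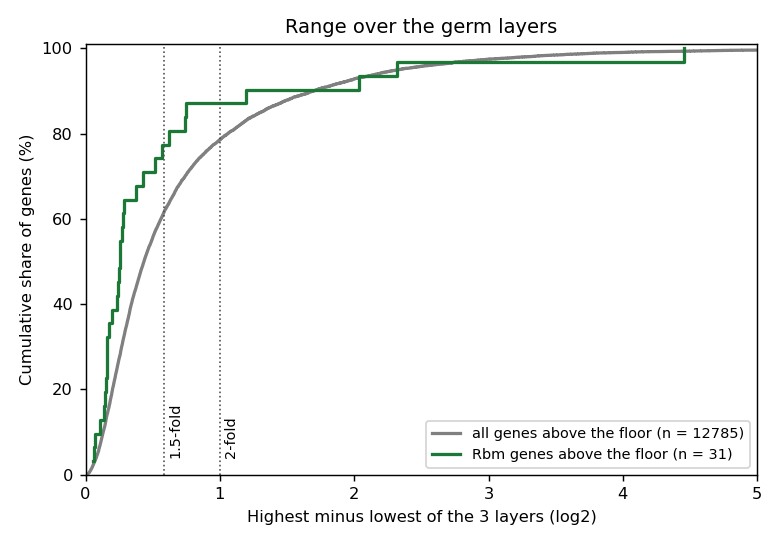
Cumulative share of genes (%) by the range over the layers (brightest minus dimmest, log2) for the 31 Rbm genes (green) and all 12785 genes (grey) above the floor, with dotted lines at 1.5-fold and 2-fold. At 1.5-fold the green curve has reached 77.4% and the grey curve 61.6%.

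Other families of RNA processing showed where the Rbm genes lay between the level and the unequal ones. None of 11 SR proteins and none of 19 hnRNP proteins above the floor was called, with median ranges of 1.15-fold and 1.10-fold. Of 27 tissue-specific splicing regulators 13 were called, with a median range of 1.90-fold, among them Esrp1 (1508, 94.9 and 1173), Celf4 (99.7, 239 and 480) and Mbnl1 (594, 134 and 129). Such shares are descriptions of lists chosen with earlier results known.

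**Figure D5:**
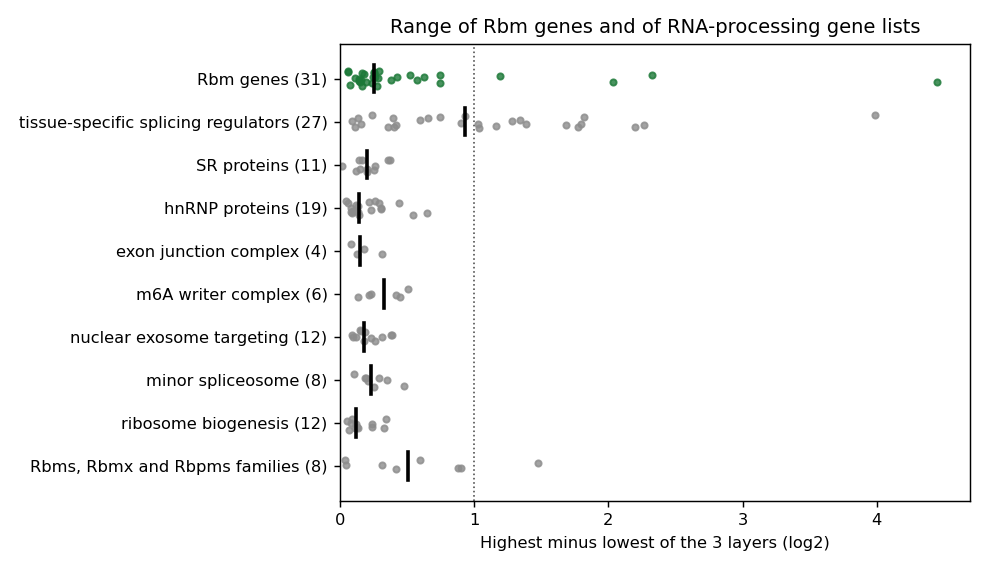
Range over the layers (brightest minus dimmest, log2) of each gene above the floor in the Rbm set (green) and in 9 lists of RNA-processing genes (grey, number of genes in brackets), with the median as a black bar and 2-fold as a dotted line. The Rbm set has its median at 0.25 and 4 points beyond the line, and the tissue-specific splicing regulators have their median at 0.93.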

How the data were processed

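Each of the 3 layers was measured on 1 array. The values deposited by the authors are intensities on a linear scale. Per the labels and methods the authors corrected background and normalized with RMA and took expression values from the affy package, while the step behind the linear form is not stated. Of 45037 probe sets, 34945 had 1 gene symbol in the platform annotation, 932 listed several and 9160 had none. Symbols were checked through the Entrez identifier, which matched for 34741 probe sets and altered 0. Differences between layers were taken on log2 values in Python 3.11.15 with pandas 2.3.3. SAM, named in the methods, needs replicates and was not run. Calls and folds were made as stated in the report, and the code was tested on simulated data.

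All members are named with values. Members, roles, gene lists and motifs were chosen with earlier results of these data known. Outside the members, named genes are direct partners, list members of wide range and markers. Rbp7, a retinol-binding protein gene placed in a list in error, was removed. The 7 alternatives were a stricter floor, dim values raised to the floor, the mean of probe sets, omission of probe sets ending in _x_at or _s_at, cyclic loess (limma 3.58.1), centring on 8 housekeeping genes and an offset of 16. No build is stated for the array.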

Additional observations from a re-analysis of the deposited data

How the results depend on the processing

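Under the 7 alternatives, the count of Rbm genes called in any pair was 4 in all but one, namely the floor at the 75th percentile, where Rbm20 was not called and 3 remained. For mesoderm against epiblast the count was 2 in place of 3 under 5 alternatives, through Rbm20 with the stricter floor and through Rbm47 in the others, where it was -0.90 with housekeeping centring and -0.82 with the offset, besides the values below. No difference of a called gene changed sign. The medians of the members lie near 0 and their sign is not settled: centring on housekeeping genes gave 0.03 for endoderm minus epiblast and 0.12 for mesoderm minus epiblast, as it moved the medians of all genes to 0.17 and 0.10, and the mean of probe sets gave 0.05 for mesoderm minus epiblast. Raising dim values to the floor moved Rbm20 to 1.44 (mesoderm minus epiblast) and -1.44 (endoderm minus mesoderm) and Rbm47 to -0.17 (mesoderm minus epiblast, no longer called) and 3.59 (endoderm minus mesoderm). With the mean of probe sets, which brings in dim ones, Rbm47 was 2.38 (endoderm minus epiblast), -0.67 (mesoderm minus epiblast, not called) and 3.05 (endoderm minus mesoderm), and Rbm24 was 1.62 (mesoderm minus epiblast) and -1.58 (endoderm minus mesoderm). The offset moved Rbm47 to 4.03 (endoderm minus mesoderm). With dim values raised, 18.8% of all genes were called. No paired analysis was possible because each layer had 1 array. The signal over background sets the limit: values near 80.6 carry no order.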

Other observations

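Genes that once carried an Rbm number, or that share the name in part, were outside the rule. Esrp1, formerly Rbm35a, an epithelial splicing regulator, was 1508, 94.9 and 1173 in endoderm, mesoderm and epiblast, 15.9-fold higher in endoderm than in mesoderm and 12.4-fold higher in epiblast. Esrp2, formerly Rbm35b, was 224, 64.5 and 73.3, with endoderm at least 2.78-fold above the rest. Rbfox2, formerly Rbm9, was 347, 711 and 473, with mesoderm 2.05-fold above endoderm. A dimmer Rbfox2 probe set above the floor gave 142, 195 and 170, or 1.37-fold between mesoderm and endoderm. Scaf8, formerly Rbm16, was level at 1048, 1031 and 1059. Of 8 genes of the Rbms, Rbmx and Rbpms families above the floor, 1 was called. This was Rbms1, at 2632, 4881 and 1757, with mesoderm 2.78-fold above epiblast, and its second probe set gave 1605, 3561 and 1131. Rbms3 was uncalled on the probe set used (51.2, 95.7 and 89.2). Slightly dimmer Rbms3 probe sets gave 45.2, 105 and 89.7 and 27.9, 132 and 110. These lay 2-fold or more apart between endoderm and mesoderm, but against the floor at least 1.31-fold and 1.64-fold. Rbmx, the X-linked splicing factor after which the family is named, was 1133, 1158 and 1137. Cirbp, the cold-inducible relative of Rbm3, was 329 in mesoderm and 394 in epiblast, with a log2 difference of -0.39 for endoderm minus epiblast.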
